A study of Mus musculus with 18 samples.

Results

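The first 24 h of exit from naive pluripotency in WT cells were followed in 6 of the 18 RNA-seq libraries of the series, 3 of WT ESCs and 3 of WT T24 cells, which were chosen by their labels of cell line, medium and time. WT cells are the mouse embryonic stem cell line labelled E14 wt, given as E14TG2a in the study's methods. WT ESCs were collected in 2i+LIF at 0 h and WT T24 cells after 24 h in N2B27, both on gelatin. The other 12 libraries are WT cells after 48 h in N2B27 (T48) and the line iEZR_CA at the same 3 stages, in which doxycycline, given from about 16 h before exit, switches on a constitutively active ezrin. Of the 53801 genes in the count table, 18469 were expressed highly enough to be tested.

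The medium 2i+LIF holds ESCs in the naive state of the pre-implantation epiblast with an inhibitor of MEK, the kinase that activates ERK, with CHIR, an inhibitor of GSK3 that stabilises beta-catenin, and with the cytokine LIF, which activates STAT3. N2B27 is the same base medium without any of them. On their removal, naive transcription factors are lost, and cells pass through a formative state like that of the early post-implantation epiblast before they take up a lineage. The 3 factors left the medium together, and no ESC library was kept for 24 h longer in 2i+LIF. The effects of each factor and of time in culture therefore cannot be told apart. Total RNA of a culture was measured, so fewer cells that express a gene and less RNA per cell cannot be told apart either.

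Gene counts per library ran from 18785967 to 27666556 in ESCs and from 13587076 to 33276622 at T24. Defining markers of ESCs were abundant in all 6 libraries. Pou5f1, the core pluripotency factor OCT4, had 15362 to 16741 normalized counts in ESCs and 18147 to 18895 at T24, and Sox2, its partner, had 11283 to 11825 and 8419 to 9112. Markers of fibroblasts, as used for feeder layers, summed to 263.1 to 311.4 normalized counts in ESCs and to 134.3 to 145.0 at T24 over the whole list of 12 genes. Its members Postn and S100a4 had no read in any library. Of the 6 members expressed highly enough to be tested, Thy1 and Dcn rose and Col1a1 and Pdgfrb fell, all beyond 2-fold. Markers of the 2-cell-like state summed to 176.5 to 206.9 and 140.4 to 162.5. The 3 libraries of each group differed from each other by more than counting noise, with a chi-square per degree of freedom of 1.59 to 3.33, and the common biological coefficient of variation was 2.98%. Spike-in RNA made up 1.047% to 1.145% of the gene count in ESCs and 0.9572% to 0.9983% at T24. Scaling by spike-ins in place of genes raised log2 changes by a median of 0.14, and directions below hold under both scalings unless stated.

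Most genes tested were called as changed with scaling by genes, and about as many rose as fell. At an adjusted p under 0.05 (edgeR's quasi-likelihood test with Benjamini-Hochberg adjustment, used throughout), 12082 genes were called, 65.4% of those tested, of which 5870 (31.8%) rose and 6212 (33.6%) fell. A change beyond 2-fold was found in 20.8% of genes, 1912 upward (10.4%) and 1928 downward (10.4%). The balance held for larger changes, with 803 up and 760 down beyond 4-fold, 203 up and 188 down beyond 16-fold, and 117 up and 88 down beyond 32-fold. With spike-in scaling, 8632 genes were called and 61.6% of them rose, against 48.6% with scaling by genes. A test against a 1.5-fold change called 4486 genes. Genes that fell beyond 2-fold took 6.92% to 7.10% of gene reads in the ESC libraries and 2.21% to 2.22% at T24, while those that rose took 1.96% to 1.97% and then 6.37% to 6.41%.

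**Figure D1:**
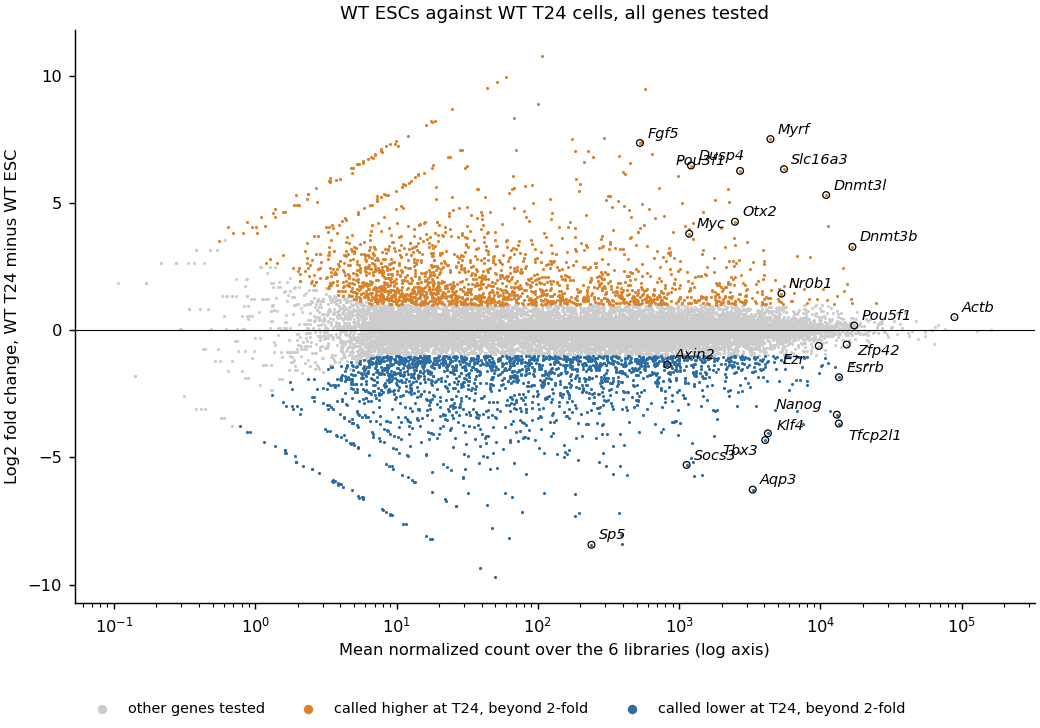
Each point is a gene, with the mean normalized count over the 6 WT libraries on a log axis against the log2 fold change of WT T24 cells over WT ESCs. Orange and blue points were called and changed beyond 2-fold, 1912 upward and 1928 downward. The ringed naive genes Nanog and Klf4 lie far below 0 and the formative genes Dnmt3l and Pou3f1 far above it, while Pou5f1 lies near 0. The slanted lines at low counts are genes with few or no reads in one group.

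Naive pluripotency genes fell with 1 exception. Of the 15 naive genes that the study displays for these same libraries, 14 fell and 13 of them beyond 2-fold. How the study chose them is not stated, so the direction of the list is not taken as independent evidence. Nanog (chr6:122707489-122714633 in GRCm38), a homeobox factor of the naive network, had 23568, 23900 and 23788 normalized counts in the 3 ESC libraries and 2393, 2392 and 2393 at T24. Its log2 change was -3.32 ± 0.03 (n = 3 per group), where ± gives an SE from the model of all 18 libraries. The groups were tightly clustered and did not overlap, which held for 66.8% of all genes tested.

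The naive factors fell to very different extents. Tbx3, Prdm14 and Klf4 fell most among the 15. The Krüppel-like factor Klf4 had 8408, 7819 and 7822 normalized counts in ESCs and 494.0, 483.5 and 472.9 at T24, a change of -4.05 ± 0.04, and Tbx3 and Prdm14 changed by -4.32 and -4.11. Esrrb, an orphan nuclear receptor that can stand in for other naive factors, kept more of its level. It had 21254, 21333 and 20914 normalized counts and then 5937, 5914 and 5908, a change of -1.85 ± 0.03. Zfp42, which encodes the naive marker REX1, changed least, from 17903, 17955 and 18921 to 12772, 12516 and 11985, a change of -0.57 ± 0.03, although at T48 it was at 820.1 ± 13.6 (SD, n = 3).

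Nr0b1, which encodes the nuclear receptor DAX1, was the naive gene that rose. It had 2601, 2924 and 2987 normalized counts in ESCs and 7642, 7872 and 7782 at T24, a change of 1.44 ± 0.04. By T48 it had dropped to 199.0 ± 8.2, below its level in ESCs.

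**Figure D2:**
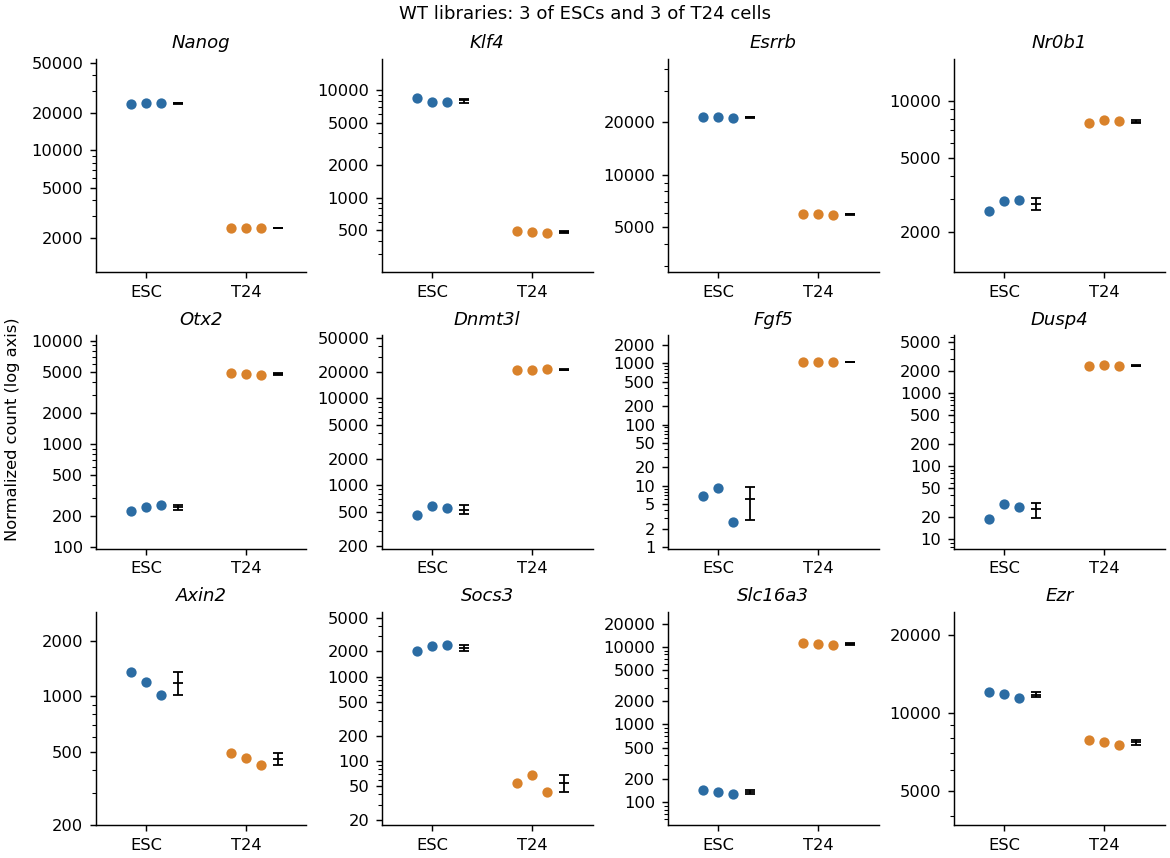
Normalized counts on log axes for 12 genes in the 3 WT ESC libraries (blue) and the 3 WT T24 libraries (orange), with the mean and SD of each group in black beside the points. In each panel the groups do not overlap, and the spread within a group is small against the difference. Nanog, Klf4, Esrrb, Axin2, Socs3 and Ezr are lower at T24, and the other 6 are higher.

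Genes of the early post-implantation and formative epiblast rose together. The early post-implantation genes that the study displays, for which the same holds, rose in 6 of 6 cases. Of 20 further formative genes, 18 rose and 17 of them beyond 2-fold, with a median log2 change of 1.88 against -0.01 over all genes tested. Otx2, a homeobox factor that redirects OCT4 to new enhancers, had 225.9, 247.1 and 256.3 normalized counts in ESCs and 4822, 4712 and 4644 at T24, a change of 4.26 ± 0.05. Fgf5, a growth factor used as the standard marker of the early post-implantation epiblast, was close to absent from ESCs, with 6.74, 9.18 and 2.55 normalized counts, and had 1059, 1043 and 1047 at T24. The T24 libraries stood apart from the ESC libraries for both genes.

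Pou3f1, which encodes the POU factor OCT6, had 85.4, 69.6 and 56.2 normalized counts and then 5877, 5286 and 4838, a change of 6.26 ± 0.16. Smaller rises were found for Sox3 (3.62), Sall2 (3.15), Tcf15 (3.03), Zic2 (1.96) and Foxd3 (1.29). Tcf15 was the most variable of these at T24, with 1873, 1480 and 1107 normalized counts. The exceptions were Epha4, an Eph receptor, which changed by -2.28, and Tead2, which changed by -0.13 and was not called with spike-in scaling.

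Factors of general pluripotency rose more often than they fell, with a median log2 change of 0.67. Of 12 genes, 8 rose and 4 fell (8 and 0 with spike-in scaling), and those that rose beyond 2-fold were Lin28a, Utf1, Dppa4, L1td1, Dppa2 and Zfp281. Lin28a, which encodes an RNA-binding protein that blocks let-7 miRNAs, went from 1549, 1614 and 1608 normalized counts to 11763, 12211 and 12508, a change of 2.92 ± 0.03. Utf1, a chromatin factor of pluripotent cells, changed by 2.89 ± 0.07. Sox2 and Sall4 changed by -0.40 and -0.35, and neither passed the test with spike-in scaling.

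Release of MEK inhibition was followed by higher transcripts of ERK targets and of the inhibitors that ERK induces against itself. Of 25 genes, 20 rose and 13 of them beyond 2-fold, 3 fell, and the median log2 change was 1.05. Dusp4, a nuclear phosphatase that inactivates ERK, had 19.1, 30.6 and 28.1 normalized counts in ESCs and 2401, 2435 and 2363 at T24, a change of 6.47 ± 0.07. Dusp6, its cytoplasmic counterpart, had 328.2, 273.9 and 361.0 and then 2591, 2581 and 2546, a change of 3.00 ± 0.06. Both phosphatases were higher still at T48, at 4336 ± 95.3 and 3732 ± 62.6.

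Among the other feedback inhibitors, Spry4 had 47.2, 60.5 and 76.6 normalized counts in ESCs and 1971, 2033 and 2071 at T24, a change of 5.0 ± 0.07. Spred1, Spry1 and Spred3 changed by 1.78, 1.71 and 1.57. Inhibitors that were already abundant in ESCs rose little, with 0.60 for Spred2 and 0.28 for Spry2. Of the transcription factors downstream of ERK, Myc went from 116.9, 172.9 and 172.8 normalized counts to 2221, 2203 and 2189, and the immediate early gene Egr1 from 13.5, 19.9 and 13.6 to 274.4, 296.8 and 231.7. Etv4 and Etv5, ETS factors that carry FGF signals, changed by 1.05 and 0.39. The genes that fell were Junb (-1.88), Fos (-0.97) and Lif (-0.84), where Junb and Fos encode subunits of the factor AP-1, and Junb is also a target of STAT3.

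Ligands and receptors of the FGF pathway upstream of ERK moved less. Of 12 genes, 6 rose and 3 fell (6 and 1 with spike-in scaling), and only Fgf5 and Fgf15 changed beyond 2-fold. Fgf4, the main ligand that ESCs make for themselves, was already present under inhibition, with 7105, 6953 and 6718 normalized counts, and had 9611, 9639 and 9358 at T24, a change of 0.45 ± 0.05. The main receptor Fgfr1 changed by -0.22, a call lost with spike-in scaling, and Fgfr2 by 0.67. Per kilobase of exon, Fgf4 had a mean level of 2168 normalized counts in ESCs and 2985 at T24, and Fgf5 of 2.46 and 419.7.

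WNT target genes split after removal of CHIR. Of 17 genes, 9 fell and 8 of them beyond 2-fold, while 7 rose and 4 of them beyond 2-fold. Sp5, a zinc finger factor that is among the most direct targets of beta-catenin, was lost most completely. It had 505, 646 and 436 raw counts in the ESC libraries and 2, 1 and 1 at T24, at the floor of detection, so no fold change is given. Axin2, a scaffold protein of the complex that degrades beta-catenin and the usual reporter gene of the pathway, kept a share of its level, with 1359, 1192 and 1016 normalized counts in ESCs and 489.5, 460.3 and 424.0 at T24, a change of -1.36 ± 0.11. Neither gene overlapped between the groups.

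The promoters of this pair are shown because both genes are read as WNT reporters and fell to such different extents. The sequences are the 250 bases before the RefSeq start site in GRCm38.p6, on the strand of the gene, with capitals for matches to ATCAAAG, the core that TCF and LEF factors bind, searched on both strands. Sp5 lies at chr2:70474923-70477729 and its window at chr2:70474673-70474922 on the plus strand. Axin2 lies at chr11:108920349-108950783 and its window at chr11:108920099-108920348 on the plus strand.
Sp5: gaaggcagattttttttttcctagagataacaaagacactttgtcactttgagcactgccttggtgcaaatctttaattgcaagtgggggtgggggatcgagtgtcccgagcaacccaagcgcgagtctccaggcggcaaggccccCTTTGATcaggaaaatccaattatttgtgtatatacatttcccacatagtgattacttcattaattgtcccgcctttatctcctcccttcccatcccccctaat
Axin2: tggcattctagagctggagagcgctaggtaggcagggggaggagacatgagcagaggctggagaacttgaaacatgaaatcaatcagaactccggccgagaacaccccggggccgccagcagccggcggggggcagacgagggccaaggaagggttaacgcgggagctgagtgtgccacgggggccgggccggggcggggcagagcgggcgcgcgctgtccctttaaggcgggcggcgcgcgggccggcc

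The Sp5 window holds 1 match, which reads CTTTGAT on the strand shown and begins 104 bases before the start site, and the Axin2 window holds none. Over the windows of all tested genes that had one, which also reach 50 bases past the start, 402 of 15166 held the motif (2.65%). A match is a description of the letters only.

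The other WNT targets that fell beyond 2-fold included mesodermal or posterior genes and inhibitors of the pathway. The homeobox gene Cdx1 was as strongly affected as Sp5, with 887.9, 855.4 and 628.4 normalized counts in ESCs and 2 to 3 at T24. Apcdd1, a WNT inhibitor at the membrane, changed by -1.76, and the brachyury gene T by -2.54 from 15 to 22 normalized counts. Dkk1 and Rnf43, both inhibitors of the pathway, were low in ESCs and at the floor at T24. Genes that rose beyond 2-fold were Lef1, the DNA-binding partner of beta-catenin, with 27.0, 32.9 and 25.5 and then 1940, 1945 and 1898 normalized counts, the cell cycle gene Ccnd2 (4.85), the receptor Fzd7 (2.69) and the ligand Wnt8a (2.49). The feedback inhibitor genes Nkd1 and Nkd2 rose by 0.53 and 0.68, the latter a call lost without WT ESC replicate 3 (0.59) or WT T24 replicate 1 (0.53), and Tcf7 changed by 0.11, a call lost with spike-in scaling.

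LIF targets mostly fell. Of 14 genes for receptors and targets of LIF and STAT3, 11 fell, 9 of them beyond 2-fold, and 3 rose, with a median of -1.63. Socs3, the feedback inhibitor that STAT3 induces, had 1992, 2281 and 2343 normalized counts in ESCs and 55.4, 67.6 and 42.6 at T24, a change of -5.30 ± 0.08. Bcl3, a nuclear co-regulator of NF-kappaB and a STAT3 target, went from 2660, 2445 and 2238 to 75.4, 65.6 and 56.8. Stat3 itself went from 3407, 3485 and 3264 to 853.3, 841.8 and 844.9.

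The receptor subunits moved apart. Il6st, the shared signalling subunit GP130, changed by -1.38, whereas Lifr, the LIF-specific subunit, changed by 0.46 at T24 and was at 349.8 ± 11.2 at T48 from 1613 to 1695 in ESCs. The other genes of the list that rose were Socs2 (0.65) and Gbx2 (1.30).

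**Figure D3:**
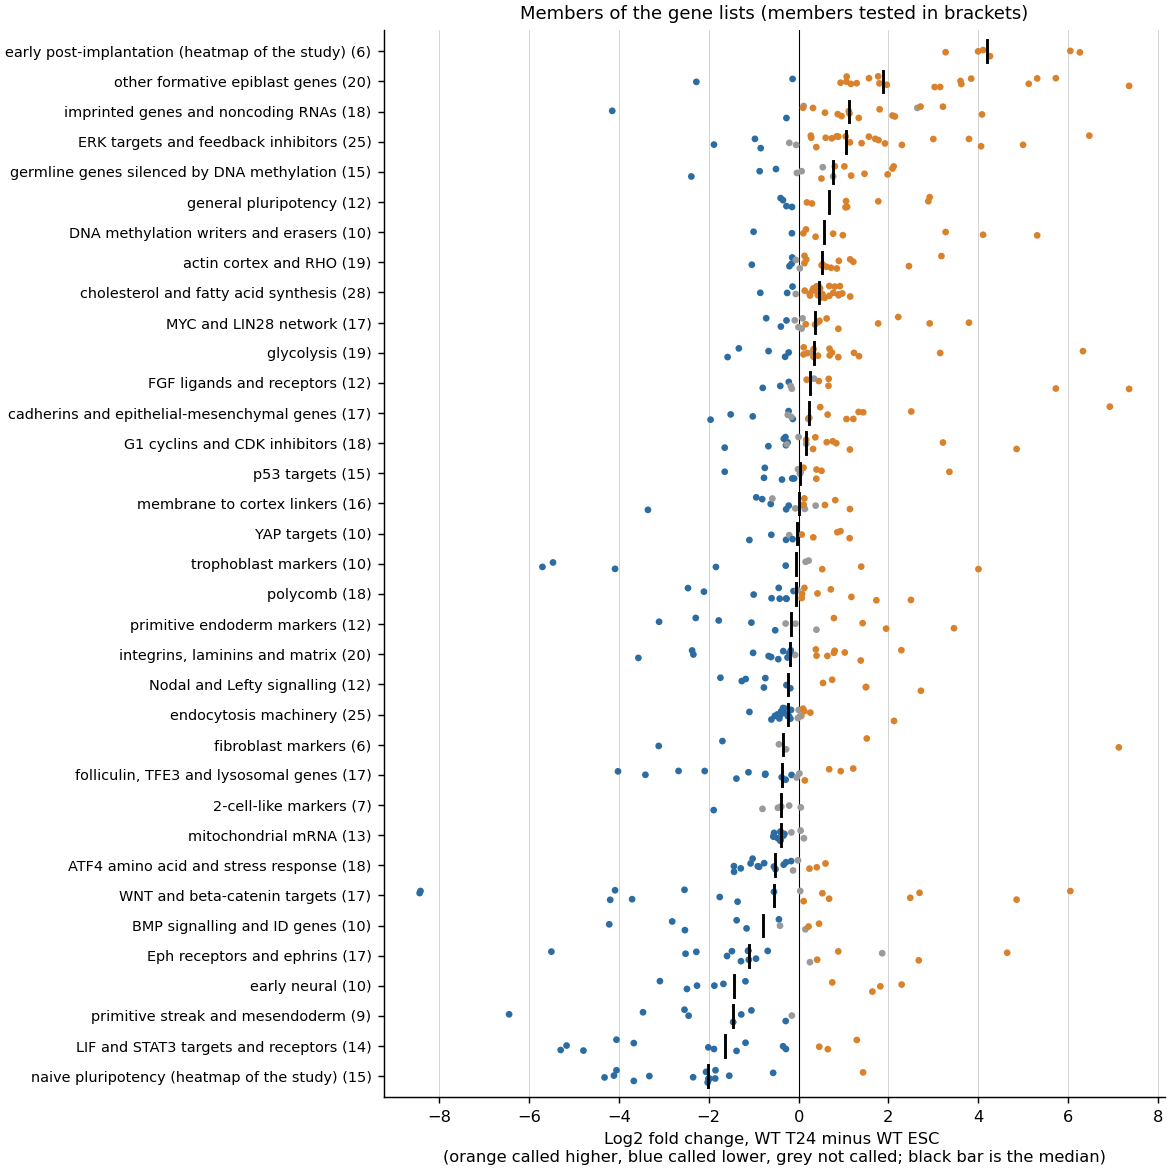
Log2 fold changes of WT T24 cells over WT ESCs for the members of 35 gene lists, 1 point per gene, ordered by the list median (black bar), with the number of members tested in brackets. Orange points were called higher, blue points lower and grey points not called. Naive genes and LIF targets lie lowest, with medians of -2.02 and -1.63, and early post-implantation and formative genes lie highest.

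Signals of the TGF-beta family changed in part. Of 12 genes of Nodal signalling, 7 fell and 5 rose. Nodal, the ligand, changed by -0.74 and its protease Pcsk6 by -1.74. The antagonists Lefty1 and Lefty2, neighbours on chromosome 1, changed in opposite directions. Lefty1 had 284.4, 233.4 and 246.1 normalized counts in ESCs and 702.6, 746.0 and 704.6 at T24, and Lefty2 had 850.8, 678.7 and 690.5 and then 295.6, 359.4 and 258.5. Skil, a transcriptional feedback inhibitor of SMADs, changed by 2.72.

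In the BMP pathway, 6 of 10 genes fell and 5 of them beyond 2-fold. They included Id1 (-1.16), the inhibitory Smad6 (-1.38), Id4 (-2.81) and Msx2 (-4.22), which are targets of BMP signals, and the ligand Bmp7 (-2.53). Id3 changed by 0.46 and the receptor gene Bmpr1a by 0.22.

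Of 10 genes that write or erase DNA methylation, 8 rose and 2 fell (7 and 1 with spike-in scaling), and the de novo writers rose most. Dnmt3l, the cofactor of the de novo enzymes, had 457.4, 575.4 and 554.3 normalized counts in ESCs and 21189, 21282 and 21805 at T24, a change of 5.31 ± 0.05. Dnmt3a went from 1304, 1161 and 1225 to 21226, 21062 and 21655, and Dnmt3b from 3131, 3183 and 3090 to 30744, 31309 and 29666. Per kilobase of exon, Dnmt3l stood highest of these at T24, with a mean level of 7171 normalized counts against 5988 for Dnmt3b and 1281 for Dnmt3a. The 3 genes then parted, since at T48 Dnmt3b was at 59626 ± 2644, Dnmt3a at 19268 ± 862 and Dnmt3l at 6051 ± 314. Genes of maintenance methylation moved little, with a change of 0.17 for Uhrf1 and of 0.11 for Dnmt1, the latter not called with spike-in scaling. Of the enzymes that remove the mark, Tet1 changed by 0.77 and Tet2 by -1.0.

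Of 15 germline genes, a class that DNA methylation silences in somatic cells, 8 rose, 6 of them beyond 2-fold, and 3 fell. The list's sum went the other way, from 10519 to 10819 normalized counts in ESCs to 7858 to 7928 at T24, and its most abundant member in ESCs, the tubulin gene Tuba3a, changed by -0.87. Mael, of the piRNA pathway, had 57.3, 58.9 and 61.3 normalized counts in ESCs and 261.5, 254.4 and 264.8 at T24, and Piwil2 and Taf7l changed by 1.98 and 1.17. The meiotic gatekeeper Stra8 changed by -2.39 ± 0.14 and the RNA-binding gene Dazl by -0.50.

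Linkers of membrane and cortex, through which membrane tension is set, were called about as often as all genes tested. Of 16 genes, 6 rose and 6 fell, 37.5% each, against 31.8% and 33.6% of all genes tested. The median change was 0.02, and with spike-in scaling 3 rose and 4 fell. Ezr, which encodes ezrin, had 12017, 11805 and 11468 normalized counts in ESCs and 7890, 7703 and 7539 at T24, a change of -0.62 ± 0.03. Its relatives Rdx (radixin) and Msn (moesin) changed by 0.13 and 0.11, and neither was called with spike-in scaling. Per kilobase of exon, Ezr remained the highest of these 3 genes, with 3575 normalized counts in ESCs and 2344 at T24, against 1346 and 1482 for Rdx and 639.0 and 695.9 for Msn.

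Of the myosin I genes, motors that tie the membrane to actin, Myo1a changed by -3.35 from a low level of 281.8 to 300.1 normalized counts, Myo1e by -0.94 and Myo1c by -0.28 (a call lost with spike-in scaling), while Myo1f changed by 0.82. Podxl, an anti-adhesive sialomucin of the apical membrane, changed by 1.14. RNA levels say nothing of phosphorylation of the ERM proteins.

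Genes of the actin cortex rose more often than they fell, with 13 rises and 4 falls among 19 genes (11 and 1 with spike-in scaling). Actb, the cytoplasmic beta-actin, had the largest rise of any gene in depth-scaled counts, from 71134, 74268 and 73142 normalized counts to 103527, 105459 and 105509, although its log2 change was only 0.51 ± 0.02. The actin crosslinkers traded places, since Actn4 changed by 1.22 and Actn1 by -1.04. The small GTPase gene Rhoc changed by 1.15, whereas Rhoa changed by -0.20, or by -0.07 and without a call with spike-in scaling.

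Endocytosis genes changed by small steps whose calls depended on the scaling. Of 25 genes, 17 fell and 5 rose, and with spike-in scaling 4 fell and 2 rose. Only Dnm1 (-1.09), a dynamin of neurons, and Bin1 (2.13), which bends membranes, changed beyond 2-fold. The values of Cltc, the clathrin heavy chain, and Rab5a, a GTPase of early endosomes, were 0.06 and -0.17, and neither was called with spike-in scaling.

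Adhesion genes gave no common direction, and of 17 cadherin and epithelial-mesenchymal genes 9 rose and 5 fell (9 and 3 with spike-in scaling). Esrp1, a splicing regulator of epithelia, had 13.5, 6.89 and 11.9 normalized counts in ESCs and 1311, 1330 and 1212 at T24, whereas its paralogue Esrp2 changed by -1.96. The adhesion molecule gene Epcam changed by 2.51 and P-cadherin (Cdh3) by 1.44, while E-cadherin (Cdh1) changed by -0.13, which turned to 0.003 and was not called with spike-in scaling. Vim and Snai1, genes of mesenchymal cells, changed by -1.02 and -1.51. Of 20 integrin and matrix genes, 11 fell and 8 rose (7 and 8 with spike-in scaling), and the basement membrane genes Lama1 (-3.57) and Nid1 (-2.37) and the integrin gene Itgb3 (-2.34) fell most.

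Among Eph receptors and ephrins, guidance molecules that act between touching cells, 11 of 17 fell and 9 of them beyond 2-fold, with a median of -1.11. Epha1, Epha2, Epha7 and Efnb2 rose, by 2.68, 0.88, 0.41 and 4.64 on the log2 scale. Efnb2 went from 116.9, 97.2 and 126.9 normalized counts to 2867, 2869 and 2798, a change of 4.64 ± 0.06. Ephb1 had 43, 71 and 47 raw counts in ESCs and 2, 1 and 0 at T24. It was back at 163.5 ± 10.8 normalized counts at T48.

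Transcripts for transporters and gate enzymes of glucose metabolism changed. Of 19 glycolysis genes, 14 rose and 5 fell (12 and 3 with spike-in scaling). Slc16a3, which encodes the lactate exporter MCT4, had 143.9, 134.7 and 126.9 normalized counts in ESCs and 11327, 10936 and 10490 at T24, a change of 6.33 ± 0.05. Pdk1, which encodes a kinase that inhibits pyruvate dehydrogenase, had 778.9, 804.9 and 784.2 and then 7185, 7141 and 6915. The glucose transporters switched, with Slc2a3 falling from 31118, 30863 and 29472 to 12469, 12059 and 12133 and Slc2a1 changing by 0.69 at T24 and reaching 27499 ± 752 at T48.

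Hexokinase genes fell, Hk1 by 1.58 and Hk2 by 0.67 on the log2 scale, while the phosphofructokinase genes Pfkl and Pfkm changed by 1.35 and 1.23 and Pfkp by -0.22, the last a call lost with spike-in scaling. Of 13 mRNAs of the mitochondrial genome, 10 fell (4 with spike-in scaling), with a median of -0.40, and the 37 mitochondrial genes together took 0.820% to 0.891% of gene reads in ESCs and 0.577% to 0.644% at T24. With 3 libraries against 3 the exact permutation test of that share cannot go below p = 0.1 (two-sided), which it reached. Genes of cholesterol and fatty acid synthesis rose in 24 of 28 cases by small steps, with a median of 0.45, from Hmgcs1 (0.97) and Lss (1.15) to Fasn (0.25).

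Targets of ATF4, the factor of amino acid and stress responses, fell. Of 18 genes, 13 fell, 5 of them beyond 2-fold, and 3 rose. Asns, the asparagine synthetase, had 18266, 18944 and 17997 normalized counts in ESCs and 6896, 6837 and 6827 at T24, a change of -1.44 ± 0.03. The serine synthesis gene Psat1 went from 11095, 11175 and 11096 to 6134, 6299 and 5842, and the pseudokinase Trib3 from 1145, 1206 and 1186 to 505.6, 487.5 and 454.0. The fall of several members was followed by a higher level at T48 than in ESCs, with 15062 ± 719 for Psat1, 1722 ± 125 for Trib3 and 2071 ± 141 for Chac1, against 272.0, 303.0 and 281.0 in ESCs for Chac1.

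Lysosomal genes and their regulators of the MiT/TFE family also changed unevenly. Mitf had 1078, 986.3 and 867.6 normalized counts in ESCs and 61.8, 65.6 and 48.9 at T24, and Tfeb went from 1321, 1365 and 1420 to 214.5, 235.2 and 193.9. Tfe3, the family member that folliculin keeps out of the nucleus during exit, changed by 0.94. Of 17 genes in the list, 11 fell and 4 rose. The lysosomal enzymes Hexa and Ctsb changed by -2.09 and -1.38.

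Of 18 genes for G1 cyclins and CDK inhibitors, 9 rose and 6 fell (9 and 2 with spike-in scaling). Ccnd2 had 21.4, 23.7 and 21.3 normalized counts in ESCs and 667.9, 608.7 and 682.5 at T24, Ccnd1 changed by 1.14, and Ccnd3 by -0.29, a call lost with spike-in scaling. Cdkn1a, which encodes the CDK inhibitor p21, had 5061, 5093 and 4999 and then 1617, 1646 and 1624, a change of -1.64 ± 0.03. The list of p53 and its targets, which includes Cdkn1a, was called about as often as all genes tested. Of its 15 genes, 5 rose and 6 fell (4 and 3 with spike-in scaling). These are 33.3% and 40.0%, against 31.8% and 33.6% of all genes tested. The others that fell were Perp (-0.77), Phlda3 (-0.75), Sesn1 (-0.37), Mdm2 (-0.14) and Ccng1 (-0.10), of which the calls for Sesn1, Mdm2 and Ccng1 were lost with spike-in scaling and Ccng1 turned to 0.04. The apoptosis gene Pmaip1 changed by 3.36.

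Of 18 polycomb genes, 8 rose and 9 fell (5 and 6 with spike-in scaling), and accessory subunits had the larger changes. The core genes Ezh2, Suz12 and Rnf2 changed by 0.08, -0.11 and 0.07, and none was called with spike-in scaling, where Suz12 turned to 0.02. Kdm2b, which brings PRC1 to CpG islands, had 2575, 2536 and 2545 normalized counts in ESCs and 8487, 8565 and 8594 at T24, and Jarid2 and Phf19, partners of PRC2, changed by 1.18 and 2.50. The chromobox gene Cbx8 changed by -2.46.

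Imprinted genes rose in 14 of 18 cases, 9 of them beyond 2-fold, with a median of 1.13. Peg10 went from 633.9, 667.2 and 583.2 normalized counts to 4410, 3839 and 4229. Snrpn, Mest and Peg3 changed by 2.14, 2.09 and 1.13, and the noncoding RNAs Meg3 and Rian of the Dlk1-Dio3 region by 0.96 and 0.87. Plagl1 went the other way, from 3615, 3419 and 2993 to 177.1, 191.8 and 212.8.

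Markers of later lineages fell more often than they rose, and most were low in both groups. A mean below 100 normalized counts in both groups was found for 10 of 12 streak and mesendoderm genes listed. The same held for 10 of 14 early neural genes. Of 9 genes of the primitive streak and mesendoderm, 8 fell (5 with spike-in scaling) and none rose, and their sum went from 609.6 to 665.7 normalized counts in ESCs to 155.4 to 178.1 at T24. Gsc, an organiser gene, accounted for most of that fall, with 381.0, 377.2 and 335.5 normalized counts and then 3.22, 7.07 and 1.58. Of 10 early neural genes, 4 rose, among them Sox1 (1.82) and Pax6 (1.64), and 6 fell, among them Tubb3 (-1.88) and Nes (-1.67). The sum of the neural list went from 3349 to 3445 normalized counts in ESCs to 1542 to 1645 at T24.

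Extraembryonic markers gave no common direction. Of 12 primitive endoderm markers, 4 rose and 5 fell (4 and 3 with spike-in scaling). These are 33.3% and 41.7%, against 31.8% and 33.6% of all genes tested. Of the 12, 10 had a mean below 100 normalized counts in both groups. The list's sum went from 989.0 to 1064 in ESCs to 5551 to 7189 at T24, mostly through Lrp2, an endocytic receptor. Gata6, the defining factor of that lineage, was at 30 to 36 in ESCs and 35 to 52 at T24. Of 10 trophoblast markers, 3 rose and 5 fell. Among them, Tfap2c had 2893, 2875 and 2797 normalized counts in ESCs and 55.4, 45.4 and 69.4 at T24, and Gata2 had 90, 109 and 97 raw counts and then 2 in each library.

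Outside these lists, the largest rises with a mean of at least 100 normalized counts began from near 0. Myrf, a membrane-bound transcription factor known from myelination, had 42.7, 46.7 and 52.8 normalized counts in ESCs and 8929, 8763 and 8741 at T24, a change of 7.51 ± 0.05. The matrix protein gene Thbs1 had 3.37, 6.89 and 7.66 and then 1094, 958.9 and 1204. The Notch ligand Dll1, the transcription factor genes Bcl11a and Insm1, and Ndnf, Cass4 and Arhgef28 rose from at most 8.42 normalized counts to between 329 and 788. Car4, a carbonic anhydrase of the cell surface, had no read in the ESC libraries and 298, 214 and 146 raw counts at T24. Enpp2, the enzyme that makes lysophosphatidic acid, had 2, 1 and 2 raw counts and then 1735, 1197 and 711. In all, 297 genes called beyond 2-fold had at most 3 counts in every ESC library.

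The largest falls also included genes outside these lists. Aqp3, a channel for water and glycerol, had 6729, 6523 and 6399 normalized counts in ESCs and 91.4, 72.7 and 91.4 at T24, a change of -6.27 ± 0.06. The ETS factor gene Spic went from 819.3, 752.1 and 750.1 normalized counts to 2 to 6, the channel gene Trpm1 changed by -5.71 and the NMDA receptor gene Grin1 by -7.19. Ckb, the brain-type creatine kinase, was among the 6 largest falls in depth-scaled counts, from 21502, 20666 and 21310 to 2416, 2342 and 2385. At most 3 counts in every T24 library were left of 235 genes called beyond 2-fold, among them Sp5, S1pr1 and Ly6g6e.

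The WT T48 libraries show how the state at 24 h stood to what followed. That comparison shares the T24 libraries with the one above, so values are given gene by gene. From T24 to T48, 65.7% of genes were called and 20.6% changed beyond 2-fold. Some genes were highest at T24 of the 3 stages, as was Otx2, which was at 2083 ± 124 at T48, Tcf15 at 392.4 ± 60.0 and Epha2, an Eph receptor, at 548 from 6525 to 6713 at T24. The paired-box gene Pax8 had 4.50, 3.83 and 4.26 normalized counts in ESCs, 409.6, 442.1 and 400.4 at T24 and 26.2 ± 8.8 at T48. Other genes went on upward, as did Pou3f1 to 12354 ± 733, Lin28a to 23660 ± 831 and the kinase gene Pim2 from 4347 to 4587 at T24 to 24288 at T48.

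**Figure D4:**
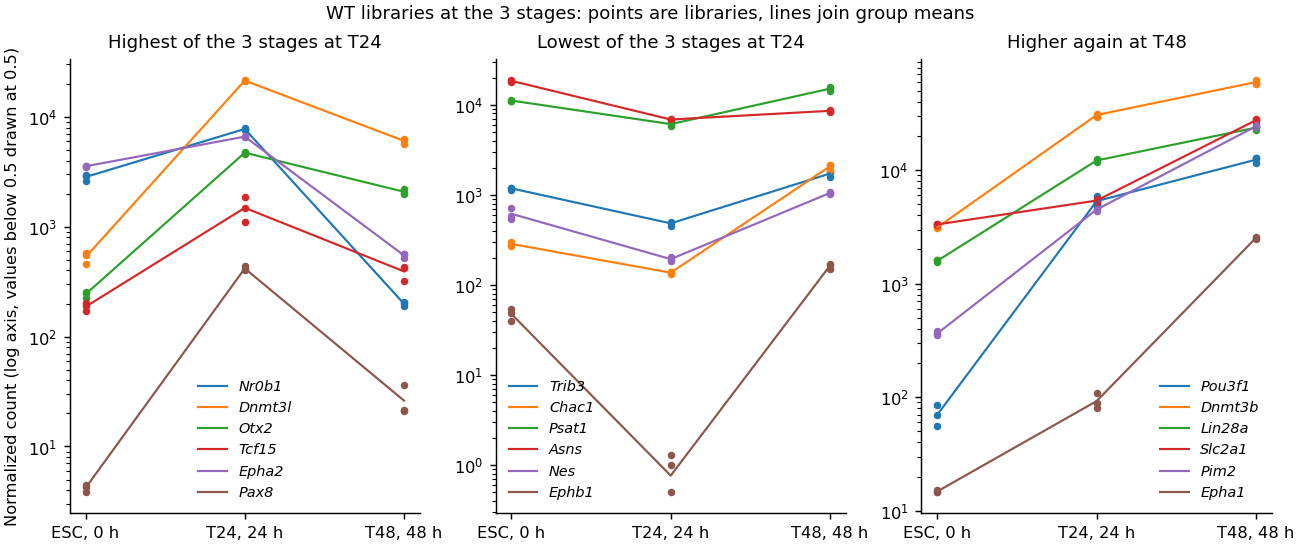
Normalized counts on log axes in the WT libraries at 0 h, 24 h and 48 h, with a point per library (3 per stage) and lines through the group means. Genes were picked by shape after their values were seen, as highest at T24 (left), lowest at T24 (middle) and higher again at T48 (right). Nr0b1 and Pax8 peak at T24, Chac1 and Ephb1 dip there, and Pou3f1, Dnmt3b and Lin28a go on upward.

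The change over 24 h was set beside that of iEZR_CA cells with the interaction of line and time, the iEZR_CA change minus the WT change. It was called for 38.3% of genes, 7081 in all, and beyond 2-fold for 8.50%. With spike-in scaling it was called for 2416 genes. The transgene and doxycycline vary with the line, so their parts cannot be told apart. Nanog changed by -3.32 in WT cells and by -1.35 in iEZR_CA cells, an interaction of 1.98 ± 0.04, and Klf4 and Tbx3 had interactions of 2.15 and 2.69. Dnmt3a and Dnmt3l had interactions of -2.50 and -2.28, with smaller rises in iEZR_CA cells. Dnmt3l began higher there, with a mean of 1837 normalized counts in iEZR_CA ESCs against 529.0 in WT ESCs. At T24 it had means of 15066 and 21425. For Dnmt3a the means were 1880 against 1230 in ESCs and 5738 against 21314 at T24.

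Targets of the withdrawn factors differed less evenly between the lines. Dusp4 (interaction -0.48) and Dusp6 (-0.10) did not pass the test of the difference, nor did Socs3 (0.20, adjusted p = 0.36) or Axin2 (0.32, adjusted p = 0.13). The 95% interval of the difference ran from -1.07 to 0.10 for Dusp4, from -0.32 to 0.11 for Dusp6, from -0.16 to 0.56 for Socs3 and from -0.02 to 0.66 for Axin2, so that of Dusp4 reached beyond 2-fold. Spry4 (-1.35), Lef1 (-2.43) and Ccnd2 (-2.58) did pass. The largest positive interaction among named genes with reads in all groups was that of Lrrc15, a leucine-rich repeat protein of the membrane, which was at 643.7 to 693.5 normalized counts in WT ESCs and 7.07 to 19.3 in WT T24 cells, with means of 284.2 and 203.2 in iEZR_CA cells. Grhl2, a grainyhead factor that drives epithelial genes, rose from 89.9, 104.8 and 97.9 to 3446, 3527 and 3424 in WT cells and from a mean of 170.4 to 649.9 in iEZR_CA cells, an interaction of -3.22 ± 0.11.

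**Figure D5:**
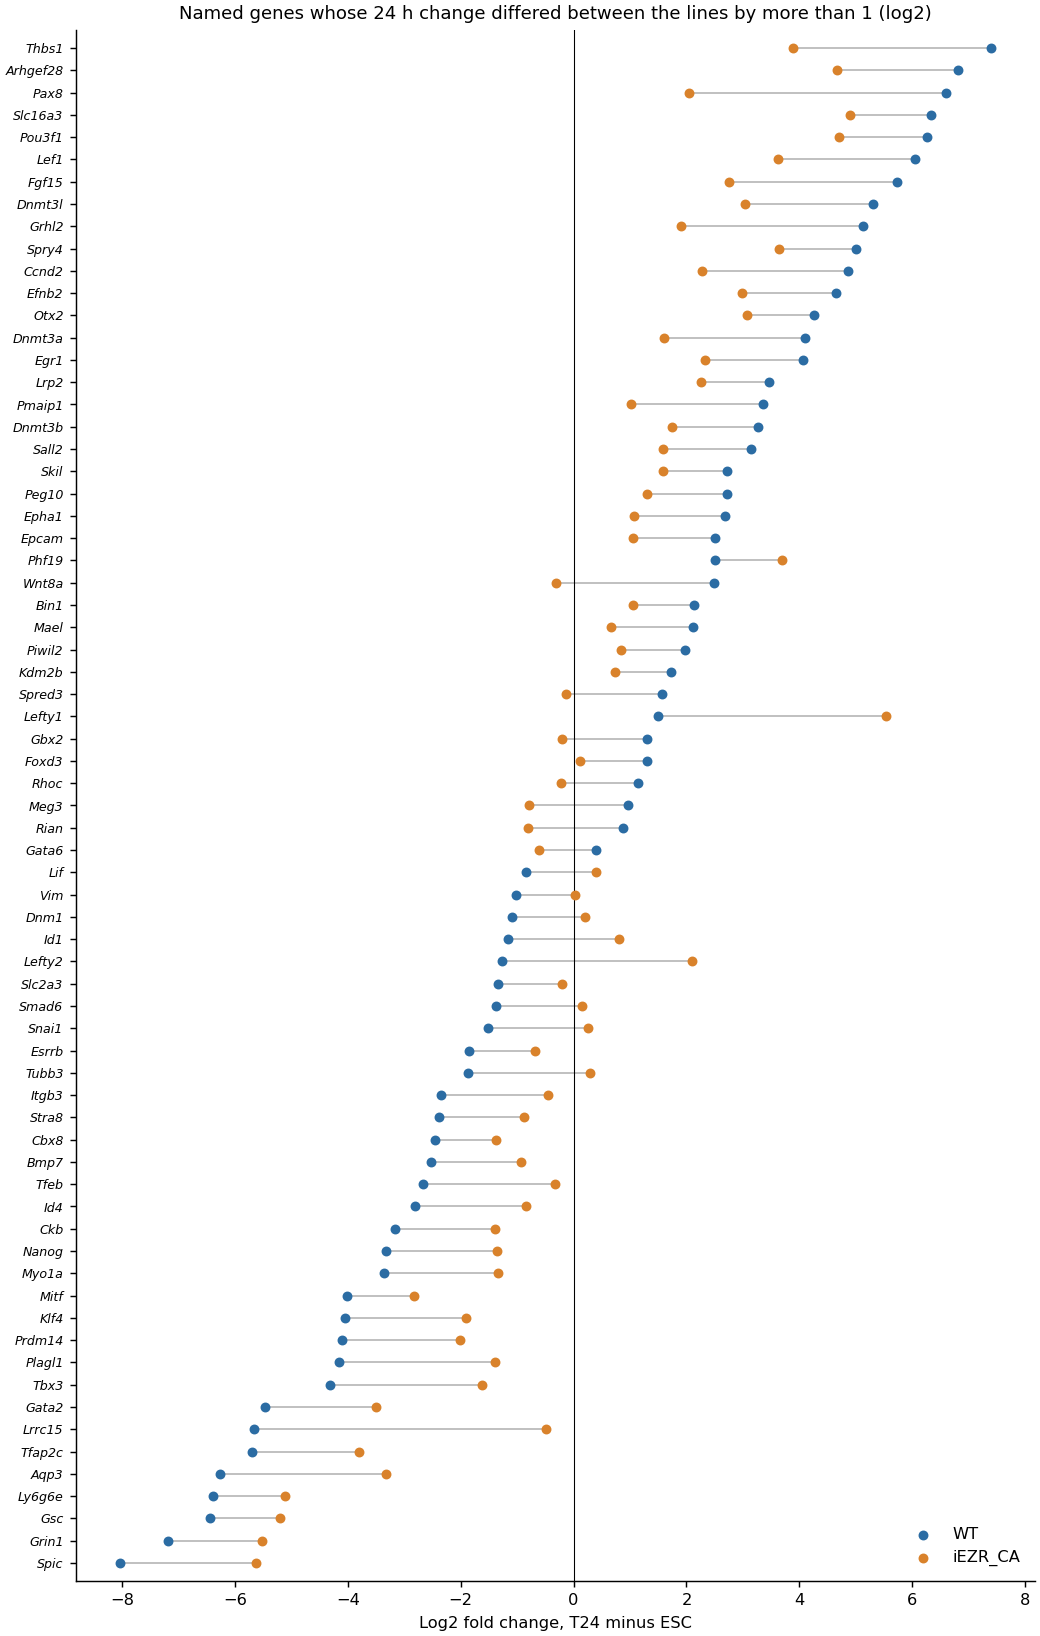
Log2 fold changes from ESC to T24 in WT cells (blue) and iEZR_CA cells (orange) for the named genes whose changes differed by more than 1 on the log2 scale at an adjusted p under 0.05, ordered by the change in WT cells. A grey line joins the values of a gene. Nanog, Klf4 and Tbx3 fell less in iEZR_CA cells, and Dnmt3a and Grhl2 rose less.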

How the data were processed

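The authors deposited raw read counts per gene, with no normalization, for 18 RNA-seq libraries. The submitters' processing notes name Trim Galore 0.6.5, GSNAP, HTSeq and DESeq2, and the study's methods give GRCm38 and Ensembl gene models. The strand setting is not given in the sources used here, and reads shared by near-identical genes could not be assigned to one of them, so overlapping genes and close copies are uncertain. The table holds 53801 genes, 92 spike-ins and 5 rows outside genes, and the last 2 kinds were kept out of library sizes and tests. Reads outside genes made up 21.27% to 22.68% of the table in the 6 libraries compared.

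Libraries were grouped by their labels, and 3 per group were treated as replicates. The labels do not say how they were cultured, and the study describes them as independent biological replicates. The members and gene lists were chosen with earlier results of these data known. Genes were filtered with filterByExpr, scaled by TMM (factors of 0.975 to 1.03) and tested on all 18 libraries with edgeR 4.0.16 (R 4.3.3, limma 3.58.1), which left 12 residual degrees of freedom, at a Benjamini-Hochberg adjusted p under 0.05. The SE of a log2 change was derived from the test statistic of that fit, so it draws on the spread in all 18 libraries. Normalized counts were divided by DESeq2 size factors. Counts of at most 3 were taken as the floor of detection. The test was run on simulated data before use. A chosen share was compared with a two-sided exact permutation test, whose smallest p with 3 against 3 is 0.1.

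Genes were named as members of the lists, as the 12 largest rises and 12 largest falls among called genes with a mean of at least 100 normalized counts and no overlap between groups, as the 6 largest rises and 6 largest falls in depth-scaled counts, as the 5 highest at one stage among genes at the floor in the other, as the 6 largest interactions in each direction, or, where stated, after their values were seen. Gene symbols and coordinates are those of GENCODE in GRCm38. RefSeq promoter windows (GRCm38.p6) matched 11943 of 18466 symbols (64.7%), too few to compare motif shares between gene groups. The alternatives tried were DESeq2 1.42.0, DESeq2 size factors, spike-in scaling, no filter, at least 10 counts in each library, fits on fewer libraries, a test against 1.5-fold, and each library left out. Some genes are not reported here.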

Additional observations from a re-analysis of the deposited data

Results flagged for a closer look

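The change over 24 h differed between the lines by more than 2-fold, at an adjusted p under 0.05 in edgeR's quasi-likelihood test of the interaction, for 1570 genes. The values below are iEZR_CA change minus WT change on the log2 scale, for the genes named in the report that passed that test. Groups of 3 libraries were not checked for single values that stand apart, and the effect of leaving out each library is given with the processing. For some genes the lines already differed in ESCs, and the part of that difference in the interaction was not tested. Lefty1 had a mean of 12.2 normalized counts in iEZR_CA ESCs against 233.4 to 284.4 in WT ESCs. At T24 its means were 601.3 in iEZR_CA cells and 717.7 in WT cells, so the lines differed mainly in ESCs.

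Among naive genes that fell in WT cells, together with the ligand gene Lif, the interaction was above 0 for Nanog (1.98), Klf4 (2.15), Tbx3 (2.69), Prdm14 (2.10), Esrrb (1.17) and Lif (1.24). Of the formative genes and factors, it was below 0 for Pou3f1 (-1.56), Otx2 (-1.19), Sall2 (-1.57), Foxd3 (-1.18), Gbx2 (-1.50) and Fgf15 (-2.97). The call for Pou3f1 (adjusted p = 0.045 in edgeR) was lost in 7 fits that each left out 1 library, with adjusted p of 0.052 to 0.15. The DNA methylation genes Dnmt3l (-2.28), Dnmt3a (-2.50) and Dnmt3b (-1.53) and the germline genes Mael (-1.45) and Piwil2 (-1.15) also lay below 0, and Stra8 (1.51) lay above it.

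Among signalling genes, the interaction was below 0 for the ERK targets and inhibitors Spry4 (-1.35), Spred3 (-1.69) and Egr1 (-1.73), for the WNT genes Lef1 (-2.43), Ccnd2 (-2.58) and Wnt8a (-2.79) and for Skil (-1.14). It was above 0 for the Nodal antagonists Lefty1 (4.05) and Lefty2 (3.36) and for the BMP genes Id1 (1.96), Smad6 (1.53), Id4 (1.98) and Bmp7 (1.6).

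In genes of cell shape and adhesion, values were below 0 for Rhoc (-1.36), Bin1 (-1.08), Epcam (-1.46), Efnb2 (-1.66) and Epha1 (-1.6) and above 0 for Myo1a (2.01), Dnm1 (1.29), Vim (1.05), Snai1 (1.76) and Itgb3 (1.89). Metabolic, lysosomal and cell death genes gave Slc16a3 (-1.44), Slc2a3 (1.13), Mitf (1.19), Tfeb (2.34) and Pmaip1 (-2.33). Polycomb genes gave Kdm2b (-1.0), Phf19 (1.19) and Cbx8 (1.09), and imprinted genes gave Peg10 (-1.41), Meg3 (-1.74), Rian (-1.69) and Plagl1 (2.76).

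Lineage markers gave Gsc (1.25), Tubb3 (2.16), Lrp2 (-1.20), Gata6 (-1.02), Tfap2c (1.90) and Gata2 (1.97). The remaining genes were Thbs1 (-3.52), Arhgef28 (-2.14), Aqp3 (2.95), Spic (2.42), Grin1 (1.67), Ckb (1.76), Ly6g6e (1.29), Pax8 (-4.55), Lrrc15 (5.18) and Grhl2 (-3.22). Gata2, Ly6g6e, Spic and Gsc were at or near the floor in WT T24 cells, where the fitted value depends on few reads. Calls were lost for Gsc and Ly6g6e with spike-in scaling and when single libraries were left out, for Ly6g6e also with DESeq2, for Gata6 and Gata2 without WT T24 replicate 1, and for Egr1 without iEZR_CA ESC replicate 1.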

How the results depend on the processing

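Against 12082 genes called, the other tools, scalings, filters and sets of libraries left between 8632 and 12062, except that a test against a 1.5-fold change called 4486, with 2173 higher and 2313 lower. With spike-in scaling the number called lower fell to 3318, and the interaction of line and time was called for 2416 genes against 7081. Requiring 10 counts in each of the 6 libraries left 2027 genes beyond 2-fold, 996 higher and 1031 lower, which removes genes near 0 in one group by construction. Leaving out 1 library at a time gave 11264 to 11870 called genes, 5370 to 5790 higher and 5894 to 6106 lower, and beyond 2-fold 3777 to 3938, 1869 to 1988 higher and 1908 to 1972 lower. The interaction was then called for 6441 to 6920 genes, and beyond 2-fold for 1476 to 1567. Of the genes called beyond 2-fold, 3567 of 3840 were so called in the same direction by DESeq2. Of 197 genes named for their WT change, over 2729 values, 78 values no longer passed the test, 2 newly passed and 3 reversed, those of Cdh1 (0.0031), Suz12 (0.0198) and Ccng1 (0.0351), all with spike-in scaling and none called. Of 966 interaction values of 69 genes, 20 no longer passed, among them those of Pou3f1 and Gsc. List medians moved beyond their replicate spread in 78 of 490 values, and with spike-in scaling the medians of the polycomb, YAP and trophoblast lists changed sign. The cause was not tested. No paired analysis was possible because the labels give wells and no replicate numbers. Genes near the floor are limited by depth, and 3 libraries per group show only the spread between these libraries.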

Other observations

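Long intergenic noncoding RNAs rose more often than they fell. Of 543 such genes tested, 37.8% rose and 18.6% fell, against 31.8% and 33.6% of all genes, and all 5340 such genes in the table together took 0.284% to 0.296% of gene reads in the ESC libraries and 0.379% to 0.389% at T24. The groups did not overlap, and the exact permutation test gave p = 0.1, the smallest it can give. Genes of the X chromosome, 781 tested, changed beyond 2-fold upward in 13.7% and downward in 5.63% of cases, with a median of 0.11, against 10.4% in each direction over all genes. Chromosome 14, with 643 genes tested, held 94 such rises (14.6%) and 54 falls (8.4%). Chromosome 11, with 1408 genes tested, held 107 rises (7.6%) and 181 falls (12.9%). These 3 chromosomes were picked after their values were seen.

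Of 17 genes of the MYC and LIN28 network, 10 rose and 3 fell (10 and 1 with spike-in scaling), with a median of 0.37. Of 10 targets of the co-activator YAP, 5 rose and 4 fell (4 and 2 with spike-in scaling). None of 7 tested markers of the 2-cell-like state rose and 1 fell (14.3%). Of 6 tested fibroblast markers, 2 rose and 2 fell, 33.3% each. Over all genes tested, 31.8% rose and 33.6% fell. Genes of cytosolic ribosomal proteins took 2.20% ± 0.10 of gene reads in ESCs and 2.02% ± 0.02 at T24 (SD, n = 3 per group).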
